A study of Mus musculus with 2 samples.

Results

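The BCL2 family sets how readily a cell's mitochondria are opened, and 10 of its genes were described here in mouse leukemia cells. They were taken by symbol from the 31053 genes of the deposited tables: the anti-apoptotic genes Bcl2, Bcl2l1 and Mcl1, the effector genes Bax and Bak1, and the BH3-only genes Bcl2l11, Bad, Bid, Pmaip1 and Bbc3. All 10 were found, and all 10 had at least 100 UMIs over both libraries, the minimum set for a ratio. UMIs, or unique molecular identifiers, tag single RNA molecules, so that each molecule caught is counted once.

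The cells were GFP+ Lin- c-Kit+ splenocytes from mice with AE9a leukemia, an acute myeloid leukemia driven by a truncated AML1-ETO fusion that was delivered by retrovirus into fetal liver cells together with GFP. By the title, genotype and treatment labels the leukemia cells were Usp18f/f with UBCER-Cre, a Cre recombinase made in all tissues and switched on by tamoxifen, so the leukemia cells of the oil group carried the floxed alleles and the recombinase as well, while the recipients were wild type; the treatment protocol instead describes cells with 1 floxed allele (Usp18+/f). After the transplanted C57BL/6 mice, young adults of both sexes, had become sick, they were injected with corn oil or with tamoxifen in corn oil, and spleens were taken 3 days after injections began. The sort pooled 3 mice per group and aimed at 8000 cells, which gave 1 library labelled oil (genotype label Usp18f/f) and 1 labelled tamoxifen (genotype label Usp18delta/delta). Tamoxifen and deletion go together in this design and cannot be told apart.

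Cells in which 500 or more genes were seen and mitochondrial genes gave no more than 10% of UMIs were kept. There were 6838 kept cells and 66045700 UMIs in the library labelled oil, and 6472 kept cells and 60661486 UMIs in the library labelled tamoxifen, with medians of 8622.5 and 8209.5 UMIs per cell. The Usp18 transcript did not follow its label, with 5.62 CPM (UMIs of a gene per 1000000 UMIs of all genes) in oil and 15.4 CPM in tamoxifen. Reads of a 3′ kit need not cover the deleted exons, so this level does not show whether the gene was deleted, and libraries are named below by their labels only. Isg15, an interferon-induced gene, was at 47.8 and 113 CPM. The sorting marker Kit was at 171 and 232 CPM. Summed T cell markers (5 genes) reached at most 0.0659 CPM and neutrophil markers (5 genes) at most 0.0303 CPM, with 5 and 3 of the T cell genes and 3 and 4 of the neutrophil genes at 0 in oil and tamoxifen, and B cell markers (4 genes) reached at most 0.212 CPM. Macrophage markers (5 genes) were at 7.27 and 7.34 CPM, whereas mast cell genes (6 genes, 1698 and 1469 CPM) and erythroid genes (7 genes, 6239 and 7884 CPM) were high; their part in the results was not tested. The libraries shared 14 cell barcodes, 12 of them among kept cells. With 1 library per group there was no replicate check, no test was run, and every interval below is a 95% interval for counting error only. "Higher" and "lower" describe these libraries and not the conditions.

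The family works as a balance on the outer mitochondrial membrane. BAX and BAK1, once active, form pores that release cytochrome c and start the caspases that dismantle the cell. BCL2, BCL-XL (from Bcl2l1) and MCL1 hold the effectors in check, and the BH3-only proteins are the sensors that bind these guards or activate the effectors in response to stress, lost growth factors or DNA damage. Many blood cancers lean on a guard, often BCL2 or MCL1, and drugs that occupy its groove are used against leukemia. The messenger RNA says nothing of protein turnover, which for MCL1 is fast, nor of the phosphorylation and cleavage that control BAD and BID.

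Promoter sequence is shown for 4 members on which the results turn: Bcl2 and Bcl2l11, the members that differed most between the libraries, and Mcl1 and Bbc3, a guard and a sensor whose levels were alike across cell states. RefSeq windows of 250 bases upstream of a start on GRCm38.p6 were held for 9 of the 10 members, 15 windows in all, and none for Pmaip1. Capitals mark the FOXO motif GTAAACA on either strand. The Bbc3 window shown is 1 of 3, the Bcl2l11 window 1 of 2.
Bcl2, minus strand, chr1:106714291-106714540: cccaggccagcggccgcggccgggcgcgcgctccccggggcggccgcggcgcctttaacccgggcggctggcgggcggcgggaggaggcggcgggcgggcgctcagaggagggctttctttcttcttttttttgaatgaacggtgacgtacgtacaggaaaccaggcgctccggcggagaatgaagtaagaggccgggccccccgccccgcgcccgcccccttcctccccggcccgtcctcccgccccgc
Bcl2l11, plus strand, chr2:128125788-128126037: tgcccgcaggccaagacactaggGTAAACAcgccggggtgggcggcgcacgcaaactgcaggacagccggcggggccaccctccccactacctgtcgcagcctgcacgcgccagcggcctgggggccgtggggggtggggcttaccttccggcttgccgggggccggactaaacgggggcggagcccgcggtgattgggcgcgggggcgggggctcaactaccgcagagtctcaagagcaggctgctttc
Mcl1, plus strand, chr3:95658471-95658720: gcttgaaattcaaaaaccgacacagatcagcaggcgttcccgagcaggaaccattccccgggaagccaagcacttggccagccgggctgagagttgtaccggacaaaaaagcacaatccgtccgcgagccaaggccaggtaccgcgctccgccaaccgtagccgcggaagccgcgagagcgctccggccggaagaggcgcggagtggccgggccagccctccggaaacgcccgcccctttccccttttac
Bbc3, plus strand, chr7:16310011-16310260: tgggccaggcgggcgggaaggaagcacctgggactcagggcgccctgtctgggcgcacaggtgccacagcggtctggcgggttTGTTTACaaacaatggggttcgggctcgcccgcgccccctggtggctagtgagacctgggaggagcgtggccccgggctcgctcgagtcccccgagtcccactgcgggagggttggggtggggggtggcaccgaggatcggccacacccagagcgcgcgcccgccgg
The FOXO letters stood in 2 of the 15 windows, 1 of Bcl2l11 and 1 of Bbc3, against 3.17% of all 32851 windows of the same length. FOXO proteins are transcription factors that growth factor signalling keeps out of the nucleus. The E-box CACGTG stood in 2 windows (1 of Bax and 1 of Bbc3; 6.02% of all), the E2F letters TTTNGCGC in 1 window of Bcl2l1 (1.13% of all) and the GC box GGGCGG in 10 windows (32.7% of all). The core of the interferon-stimulated response element stood in 0 of the 15 windows (2.98% of all), as did AP-1 TGANTCA (6.75%) and CRE TGACGTCA (1.55%). The p53 response element, searched by name, also stood in 0 of the 15 windows. The pattern used for it was met in only 21 of all 32851 windows (0.0639%). A count of 0 was thus likely for any 15 windows. That count does not show that the members, Bbc3 included, lack a p53 element. Both strands were searched, a letter match is not a site, and windows of 1 gene can overlap.

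The guard transcripts were almost all Mcl1. Mcl1, whose protein restrains BAK1 above all, made up 85.8% of the anti-apoptotic UMIs in each library. It was at 189 CPM in oil (95% interval 186 to 192) and 195 CPM in tamoxifen (191 to 198). Bcl2l1 was at 28.3 and 27.8 CPM. Bcl2, the founding guard, was the rarest member in both libraries, at 3.00 CPM in oil from 198 UMIs and 4.50 CPM in tamoxifen from 273 UMIs. A 3′ kit counts the end of each molecule, so these levels were not divided by gene length. Mcl1 lies at chr3:95658788-95663176, Bcl2l1 at chr2:152780668-152831728 and Bcl2 at chr1:106538178-106714274 (GENCODE M21 on GRCm38).

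The most abundant member was an effector. Bax, which moves from the cytosol to the mitochondria when activated, was at 264 CPM in oil (260 to 268) and 263 CPM in tamoxifen (259 to 268), and held 80.8% and 83.3% of the effector UMIs. Bak1, which sits in the membrane already, was at 62.7 CPM in oil (60.8 to 64.7) and 52.7 CPM in tamoxifen (50.9 to 54.6). The intervals of Bak1 did not overlap and those of Bax did. Bax lies at chr7:45461697-45466898 and Bak1 at chr17:27019810-27029009.

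Among the BH3-only genes Bad was the most abundant, at 71.0 and 65.4 CPM in oil and tamoxifen, and made up 54.0% of the BH3-only UMIs in oil and 48.9 to 51.1% (95% interval) in tamoxifen. Bbc3, which encodes the p53 target PUMA, followed at 29.8 and 33.7 CPM, and Bid, which caspase-8 cuts into its active form, at 19.0 and 18.0 CPM. Bcl2l11, which encodes BIM, the sensor of growth factor loss, was at 6.45 CPM in oil (5.85 to 7.09) and 8.51 CPM in tamoxifen (7.79 to 9.27). Pmaip1, which encodes NOXA, a partner of MCL1, was at 5.19 and 5.04 CPM. The genes lie at chr19:6941861-6951899 (Bad), chr7:16308393-16318205 (Bbc3), chr6:120891930-120916853 (Bid), chr2:128126038-128162547 (Bcl2l11) and chr18:66458533-66465565 (Pmaip1). Bid overlaps Bcl2l13, Bad overlaps Gpr137 and Bak1 overlaps Ggnbp1, each on the opposite strand, and whether the counting used strand is not given in the sources used here. Gm45808, which overlaps Bax on the same strand, was at 0 UMIs.

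Between the libraries most members differed little. In sums over cells, fewer expressing cells and less RNA per cell cannot be told apart. Past the fold is used below for levels at least 25% higher, or at least 20% lower. Of the 10 members, 2 were past the fold higher in tamoxifen, against 6.79% of all 10527 genes tested, and 0 lower, against 10.7%. Bcl2 was 1.501-fold higher (log2 ratio 0.59, 0.32 to 0.86) and Bcl2l11 was 1.32-fold higher (0.40, 0.21 to 0.59). Thus a guard and a sensor that opposes it were the members past the fold, and both are rare transcripts. The Bcl2 UMIs were not spread evenly over cell clusters, as given below. Counting intervals lay above 0 for 4 members (Bcl2, Bcl2l11, Bbc3 and Mcl1), against 19.3% of all genes, and below 0 for 2 (Bak1 and Bad), against 39.8%. The log2 ratio was 0.18 for Bbc3 (0.09 to 0.27), 0.04 for Mcl1 (0.01 to 0.08), -0.25 for Bak1 (-0.32 to -0.18) and -0.12 for Bad (-0.18 to -0.06). The intervals of Bcl2l1, Bax, Bid and Pmaip1 included 0. The median over all genes tested was -0.06, with 715 genes higher and 1122 lower past the fold; with mitochondrial and ribosomal protein genes left out of the total, the counts were 1086 and 579.

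**Figure D1:**
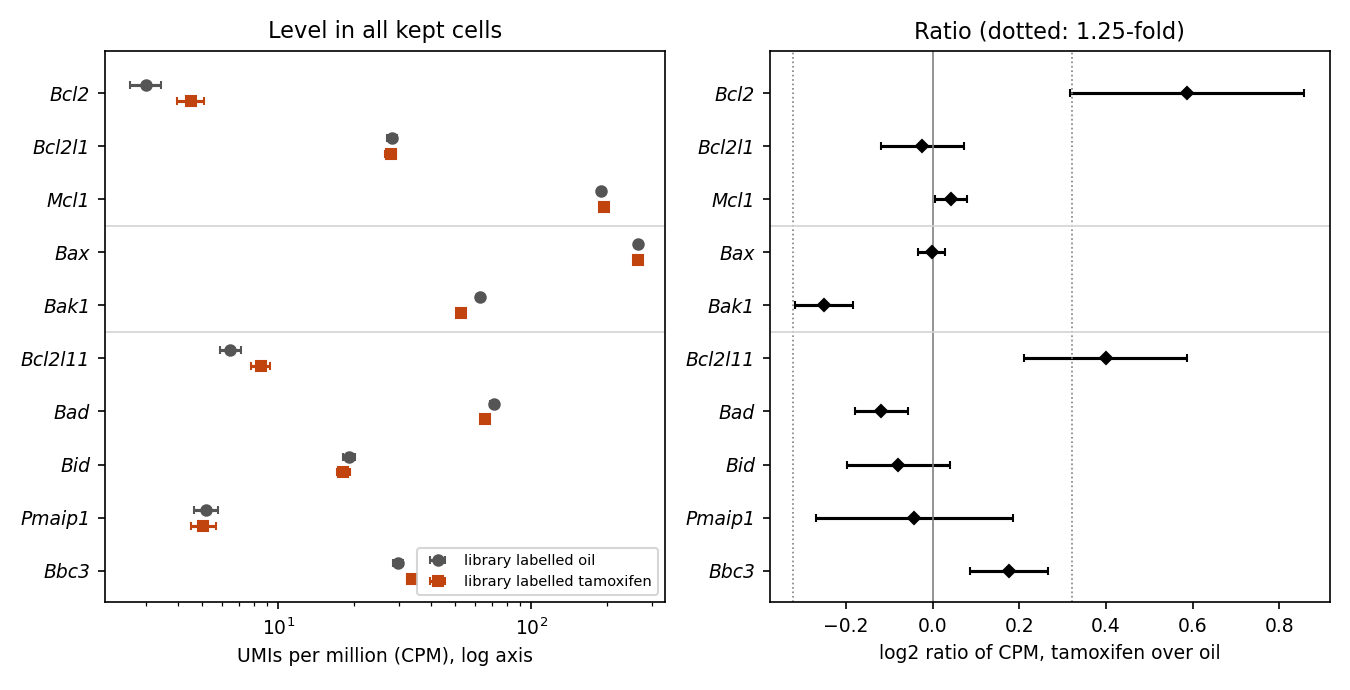
Left, the level of each member in CPM on a log axis in the library labelled oil (grey circles) and the library labelled tamoxifen (orange squares); right, the log2 ratio of tamoxifen over oil (diamonds), with dotted lines at the fold used; bars are 95% counting intervals and grey lines part the guards, effectors and BH3-only genes. The libraries lie close together for most members, Bcl2 and Bcl2l11 pass the dotted line on the right, and Bak1 at -0.25 lies furthest to the left.

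The balance within the family does not depend on the library total. Bcl2, Bcl2l1 and Mcl1 together gave 32.5% of the UMIs of all 10 members in oil (32.0 to 32.9; 14545 of 44807 UMIs) and 33.7% in tamoxifen (33.2 to 34.1; 13759 of 40866 UMIs). Effectors gave 48.2% and 46.9%, and BH3-only genes gave 19.4% in each. The odds of a guard UMI against any other were higher in tamoxifen by 0.08 on the log2 scale (0.04 to 0.12). The summed guard level was 220 CPM in oil and 227 CPM in tamoxifen (log2 ratio 0.04, 0.01 to 0.08), the effector level 327 and 316 CPM (-0.05, -0.08 to -0.02) and the BH3-only level 131 CPM in each (-0.01, -0.05 to 0.03). The guard ratio was -0.015 with every cell given the same weight, and the effector ratio was 0.033 with mitochondrial and ribosomal protein genes left out of the total. The libraries were thus close to each other in balance, and the sign of the small difference was not the same in every phase.

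Cell cycle phase separated Mcl1, Bcl2l1, Bcl2 and Bbc3 in CPM more than the library did, while Bak1 differed more between the libraries than between phases. Phases were called on cells thinned to 3000 UMIs from S and G2M gene lists, and cells without either program, resting cells included, are called G1. In oil 45.2% of 6330 cells were called G1, 19.0% S and 35.8% G2M, and in tamoxifen 59.5% of 6127 cells were called G1, 13.5% S and 27.0% G2M. Mcl1 was at 287 CPM in G1 cells of oil (280 to 295) against 137 in S and 149 in G2M, and at 258 CPM in G1 cells of tamoxifen (252 to 264) against 127 in S and 147 in G2M. Its G1 level did not overlap with S or G2M in either library.

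Bbc3 followed Mcl1, with 48.0, 20.2 and 22.2 CPM in G1, S and G2M cells of oil and 44.6, 22.3 and 24.8 CPM in tamoxifen. Bcl2l1 was at 41.1, 20.6 and 23.7 CPM in oil and 34.7, 20.8 and 22.4 CPM in tamoxifen. Bcl2 was at 4.795, 2.21 and 1.89 CPM in oil and 6.61, 3.39 and 2.25 CPM in tamoxifen. These guards and the sensor PUMA were thus lower in CPM in cells called S or G2M than in cells called G1. Bcl2l11 had another order, with 8.22, 9.16 and 3.94 CPM in oil and 10.4, 11.2 and 4.54 CPM in tamoxifen, so that G1 and S overlapped and G2M was lowest. Bax went the other way, with 217, 268 and 292 CPM in oil and 249, 270 and 279 CPM in tamoxifen.

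In S against G1, 0 members were past the fold higher in either library (all genes 25.7% in oil and 26.2% in tamoxifen) and 5 were lower in each (all genes 39.6% and 38.4%), namely Bcl2, Bcl2l1, Mcl1, Pmaip1 and Bbc3. In G2M against G1, 1 member (Bax) was higher in oil and 0 in tamoxifen (all genes 25.2% and 24.3%), and 7 and 6 were lower (all genes 38.2% and 36.3%). The 7 were those 5 with Bcl2l11 and Bid, and in tamoxifen Pmaip1 (log2 ratio -0.29, -0.66 to 0.08) was not among them. Bad and Bak1 stayed within the fold in all of these comparisons.

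CPM is a share of a cell's transcripts, and cells called S or G2M held more of them, with medians of 6076, 12761 and 12872 UMIs in G1, S and G2M cells of oil and 6472, 13467 and 12633 in tamoxifen. Counted per cell, Mcl1 was at 1.91, 1.75 and 2.02 UMIs in oil and 1.88, 1.72 and 1.97 in tamoxifen, a range far narrower than on the CPM scale. Bcl2 was at 0.0318, 0.0282 and 0.0256 UMIs per cell in oil and 0.0480, 0.0459 and 0.0302 in tamoxifen. Bbc3 was at 0.319, 0.258 and 0.3004 UMIs per cell in oil and Bcl2l1 at 0.273, 0.263 and 0.321. Bax was at 1.44 UMIs per G1 cell against 3.43 in S and 3.96 in G2M cells of oil, and at 1.81 against 3.67 and 3.75 in tamoxifen. Per cell, Mcl1 thus differed little between phases, and Bax was higher in the phases with more UMIs per cell. The lowest Bcl2 value was in G2M in each library. It rested on few UMIs in G1, S and G2M (91, 34 and 58 in oil, 175, 38 and 50 in tamoxifen), and this order was not tested.

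**Figure D2:**
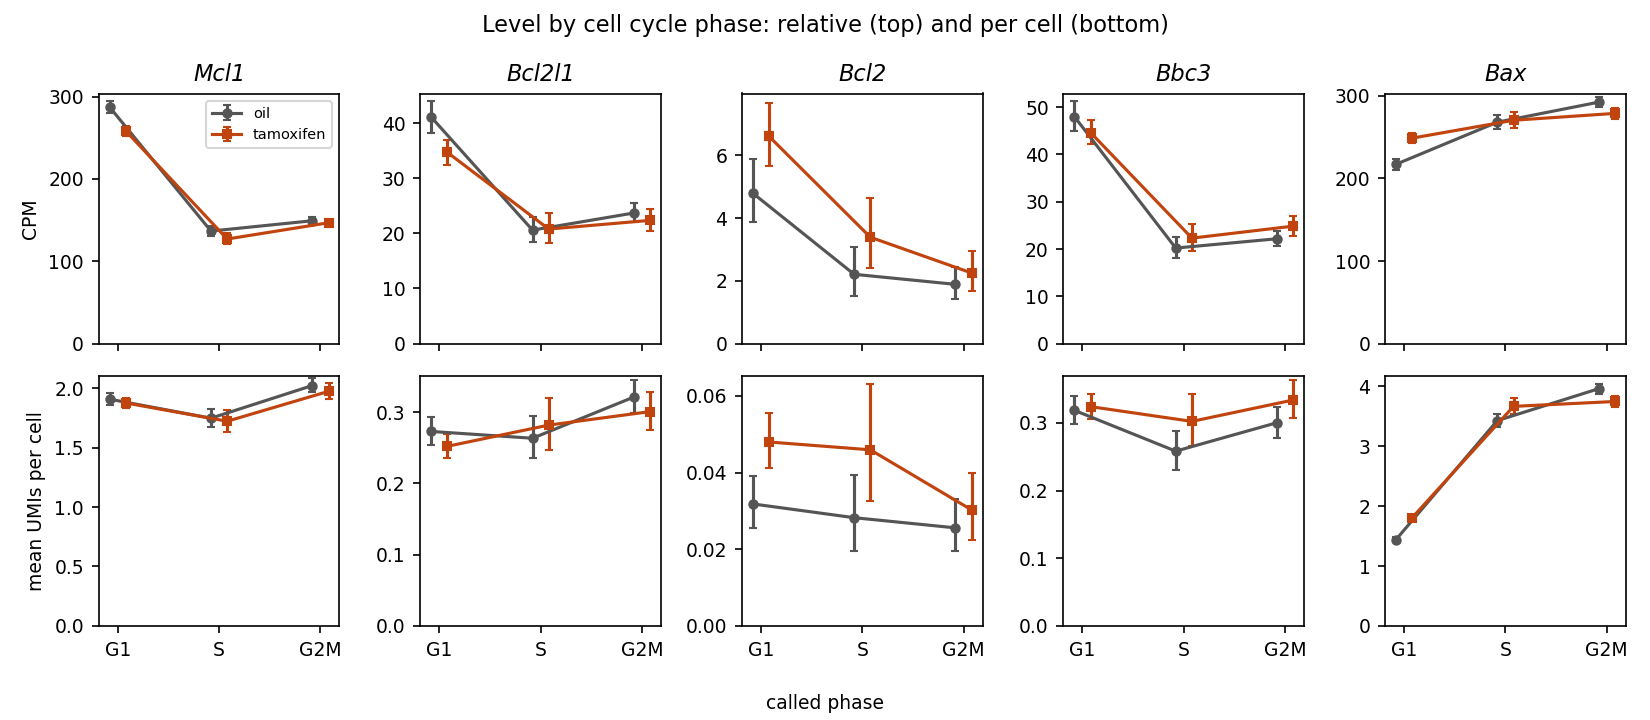
Level of Mcl1, Bcl2l1, Bcl2, Bbc3 and Bax in cells called G1, S and G2M, as CPM (top) and as mean UMIs per cell (bottom), for the libraries labelled oil (grey circles) and tamoxifen (orange squares); bars are 95% counting intervals and axes start at 0. Mcl1 decreases from 287 to 137 CPM between G1 and S in oil but only from 1.91 to 1.75 UMIs per cell, whereas Bax is higher in S and G2M on both scales.

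The guard share followed. It was 43.1% in G1, 25.6% in S and 27.2% in G2M cells of oil, and 40.2%, 24.96% and 27.9% in tamoxifen. The log2 odds of S over G1 were -1.14 (-1.22 to -1.06) in oil and -1.01 (-1.10 to -0.92) in tamoxifen, and those of G2M over G1 were -1.02 and -0.80. The difference was larger against effectors (-1.33) than against BH3-only genes (-0.73) for S over G1 in oil.

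Within G1 cells the guard share was lower in tamoxifen than in oil, against its direction over all cells (log2 odds -0.18, -0.24 to -0.11). In S cells the log2 odds were -0.05 (-0.15 to 0.06) and in G2M cells 0.05 (-0.03 to 0.12). Given the phase makeup of oil, the share in tamoxifen was 31.3%, against 33.4% in the same cells with their own makeup and 32.2% in oil. The larger G1 fraction of tamoxifen and its higher overall guard share went together, and within phases the higher share was not seen beyond counting error.

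Among G1 cells 2 members were past the fold higher in tamoxifen (all genes 4.85%) and 1 was lower (11.7%), and intervals lay above 0 for 3 members (9.2%) and below 0 for 6 (35.2%). Bcl2 was 1.38-fold and Bcl2l11 1.27-fold higher, and Pmaip1 was lower by a log2 ratio of -0.37 (-0.71 to -0.04). Bax was higher (0.20, 0.14 to 0.25), while Mcl1 (-0.15, -0.21 to -0.10), Bcl2l1 (-0.24, -0.38 to -0.11), Bak1 (-0.27), Bad (-0.17) and Bid (-0.22) were lower. Bbc3, which was higher over all cells, was at -0.11 (-0.23 to 0.02) in G1. Bcl2, Bcl2l11, Bak1 and Bad kept their direction in every phase, with log2 ratios in S and G2M of 0.62 and 0.25 for Bcl2, 0.30 and 0.21 for Bcl2l11, -0.31 and -0.17 for Bak1, and -0.12 and -0.09 for Bad. Mcl1 was at -0.11 in S and -0.02 in G2M, so its ratio lay below 0 in each phase and above it over all cells. Only for Bak1 did the intervals leave out 0 in all 3 phases.

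**Figure D3:**
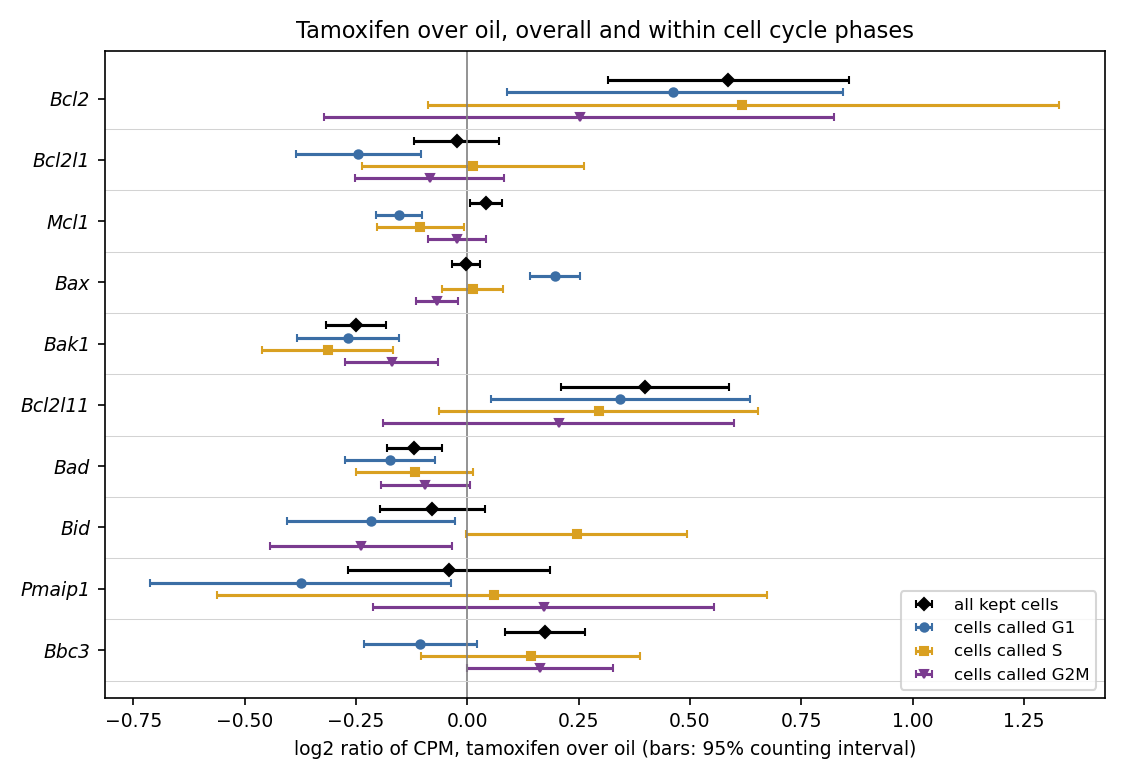
Log2 ratio of CPM, tamoxifen over oil, for each member over all kept cells (black diamonds) and within cells called G1 (blue circles), S (yellow squares) and G2M (purple triangles); bars are 95% counting intervals. Bak1 lies left of 0 in every phase, Mcl1 lies just right of 0 over all cells (0.04) and left of it in G1 (-0.15), and Bax lies right of 0 in G1 (0.20) and left in G2M (-0.07).

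Clusters, built without the family genes, gave a wider range of balance. There were 9, given by number and leading genes. Cluster 8, of low UMI counts (48.2% and 38.6%), set aside, the guard share was highest in cluster 4 (led by Cx3cr1, Cpa3 and Abca1; 98.2% of phased cells in G1), at 51.8% in oil and 50.2% in tamoxifen, and in cluster 0 (S100a6, Klf2 and Fxyd5; 96.7% in G1), at 47.4% and 47.1%. It was lowest in cluster 2 (histone genes and Top2a; 78.2% in G2M), at 24.2% in each library, and in cluster 1 (Ung, Hells and Cdt1), at 26.1% and 24.8%. Cluster 3 (Tac2, Isg15 and Hba-a2) was at 35.9% and 32.8%, and cluster 6 (Anxa2, Tppp3 and Myadm), though 93.8% in G2M, was at 41.8% and 44.0%. A mostly G2M cluster could thus hold a guard share near that of G1 cells.

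The high guard shares of clusters 0 and 4 were made up differently. With both libraries summed, cluster 0 had the highest Mcl1 (382 CPM) and Bcl2l1 (48.1 CPM) of the clusters, and also the highest Bbc3 (78.1 CPM) and Bid (26.0 CPM). Cluster 4 had the highest Bcl2, at 17.0 CPM (14.1 to 20.3; 125 UMIs), while Bcl2 was between 0.714 and 5.15 CPM elsewhere, and it had the lowest Bax (151 CPM) and Bak1 (37.5 CPM). Mast cell genes were highest in cluster 4, at 6525 CPM in oil and 4877 CPM in tamoxifen. They came next in cluster 0, at 3802 and 2813 CPM, which also had Mcpt1 and Mcpt4 among its leading genes. In cluster 0 erythroid genes, at 14248 and 20446 CPM, and macrophage genes, at 21.99 and 24.5 CPM, were highest among the clusters. The part of these genes in the levels of the members was not tested. Clusters 6 and 7 had only 3 and 2 UMIs of Bcl2. Pmaip1 was at 11.2 CPM in cluster 6 and 11.04 CPM in cluster 0, and Bbc3 in cluster 6, at 50.5 CPM, came after cluster 0.

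**Figure D4:**
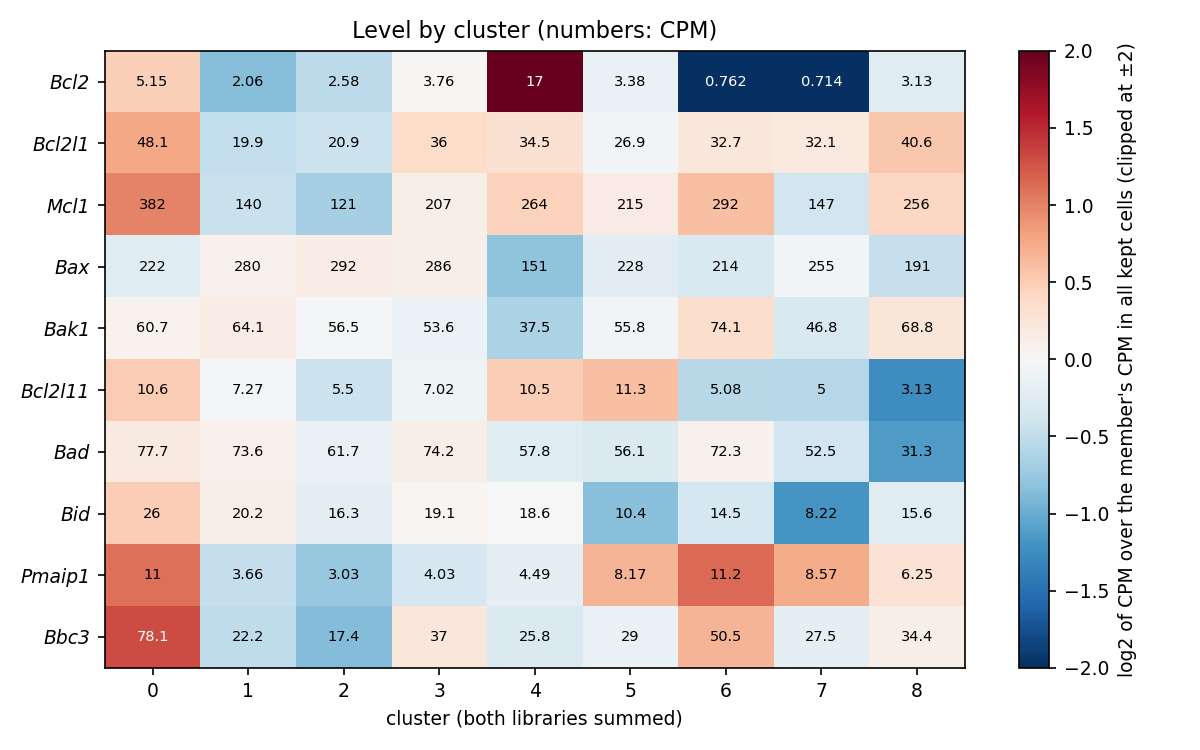
Level of each member (rows) in the 9 clusters (columns), both libraries summed; numbers are CPM and colour is the log2 of that level over the member's level in all kept cells, clipped at 2 in either direction. Bcl2 stands out in cluster 4 (17.0 CPM), and Mcl1 and Bbc3 in cluster 0.

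Within clusters the libraries were compared as well. Cluster 8, with a median of 1205.5 UMIs per cell, 1.08% mitochondrial UMIs and 208 family UMIs, was left unnamed and out of this account. Bak1 was lower in tamoxifen in 7 of the other 8 clusters, with the interval below 0 in 4, and Bcl2l1 and Bad in 6 of 8, with the interval below 0 in 1 and 2. Bcl2, Bcl2l11 and Bbc3 were each higher in tamoxifen in 7 of 8, with the interval above 0 in 2, 1 and 1. For Bcl2 these included clusters 5 and 7, where oil had 0 UMIs of it. The other members split more evenly. In cluster 4, where Bcl2 was highest, it was at 12.97 CPM in oil (36 UMIs) and 19.4 CPM in tamoxifen (89 UMIs). Cluster 4 held 7.47% of kept cells in oil and 12.1% in tamoxifen. It gave 36 of the 198 Bcl2 UMIs of oil and 89 of the 273 of tamoxifen. The part of this makeup in the Bcl2 ratio over all cells was not tested. In cluster 0 Bcl2 was at 5.17 and 5.12 CPM, and in cluster 1 at 1.64 and 2.68 CPM (34 and 38 UMIs; log2 ratio 0.71, 0.005 to 1.42). In cluster 3 Bax was at 241 CPM in oil and 316 CPM in tamoxifen (log2 ratio 0.39, 0.30 to 0.47) and Bbc3 was 1.43-fold higher in tamoxifen. In cluster 0 Pmaip1 was at 13.5 CPM in oil (123 UMIs) and 7.82 CPM in tamoxifen (55 UMIs; log2 ratio -0.79, -1.28 to -0.32). Clusters 5 and 7 held 93.8% and 85.9% of their cells in tamoxifen, with 58 and 34 cells in oil, and gave wide intervals.

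Interferon-stimulated and immediate early genes marked further states. A cell with at least 2 UMIs of 24 interferon-stimulated genes at 3000 UMIs was put in the high class, which held 28.9% of cells in oil and 43.4% in tamoxifen, with 1033 and 1099 cells at that limit and 2090 and 1758 cells 1 UMI below. The guard share in high and other cells was 34.5% and 31.3% in oil and 35.4% and 32.0% in tamoxifen. High cells were more often in G1 (54.3% against 41.4% in oil, 68.1% against 52.98% in tamoxifen), and within G1 the log2 odds were 0.08 (-0.01 to 0.18) in oil and 0.05 (-0.03 to 0.13) in tamoxifen. Mcl1 was still higher within G1, by 0.15 (0.07 to 0.23) and 0.10 (0.03 to 0.17) on the log2 scale, and so was Bcl2l1, by 0.29 and 0.24. Bcl2 was lower in high cells of oil, at 1.72 against 3.20 CPM, and was 4.64 against 4.23 CPM in tamoxifen.

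Immediate early genes such as Fos and Egr1 answer growth signals and stress within minutes. Cells with at least 4 UMIs of these 11 genes were 36.4% of cells in oil and 19.3% in tamoxifen. Mcl1 was at 252 CPM in high cells against 159 in other cells of oil, and at 292 against 177 CPM in tamoxifen. Bbc3 was at 44.3 against 22.9 CPM in oil and 57.3 against 29.3 CPM in tamoxifen. Pmaip1 was 2.04-fold and 2.01-fold higher in high cells. All 3 stayed higher within G1, by 1.40-fold and 1.39-fold for Mcl1, 1.84-fold and 1.53-fold for Bbc3 and 2.63-fold and 1.63-fold for Pmaip1, in oil and tamoxifen. Bax was lower within G1, by log2 ratios of -0.16 and -0.33. The guard share was 38.6% against 29.1% in oil and 43.0% against 31.6% in tamoxifen, and within G1 the log2 odds were 0.36 (0.27 to 0.46) and 0.49 (0.40 to 0.59). Guards against BH3-only genes gave 0.06 (-0.06 to 0.19) and 0.11 (-0.02 to 0.23) within G1, so the balance against the sensors had intervals that included 0. Bcl2l1 (-0.03 in oil and 0.21 in tamoxifen), Bcl2 (0.56 and -0.09), Bid (0.08 and 0.03) and Bak1 (0.05 and -0.01) had intervals within G1 that included 0. Bad in oil (0.009) and Bcl2l11 in tamoxifen (0.06) did as well. Bad in tamoxifen (0.21, 0.05 to 0.36) and Bcl2l11 in oil (0.49, 0.02 to 0.97) had intervals above 0.

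Mitochondrial transcripts make up a larger share in cells whose cytoplasm leaks, and also in cells rich in mitochondria. Barcodes with at least 500 genes were binned by this share, and levels were taken over the total without mitochondrial genes. The guard share was lowest where most cells lay (5 to 10%), at 32.1% in 6007 cells of oil and 33.0% in 5625 of tamoxifen. It was 36.7% and 39.9% at 2 to 5%, and 40.8% (731 barcodes) and 37.4% (713 barcodes) above 10%, the barcodes that the filter left out. The log2 odds of the top bin over 5 to 10% were 0.54 (0.43 to 0.66) in oil and 0.28 (0.16 to 0.40) in tamoxifen. Median UMIs were lower in the outer bins, 5081 and 5533 above 10% against 9205 and 8735 at 5 to 10%, and their part in the result was not tested. Bcl2l11 above 10% was at 6.24 CPM in oil and 13.7 CPM in tamoxifen (22 and 51 UMIs).

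**Figure D5:**
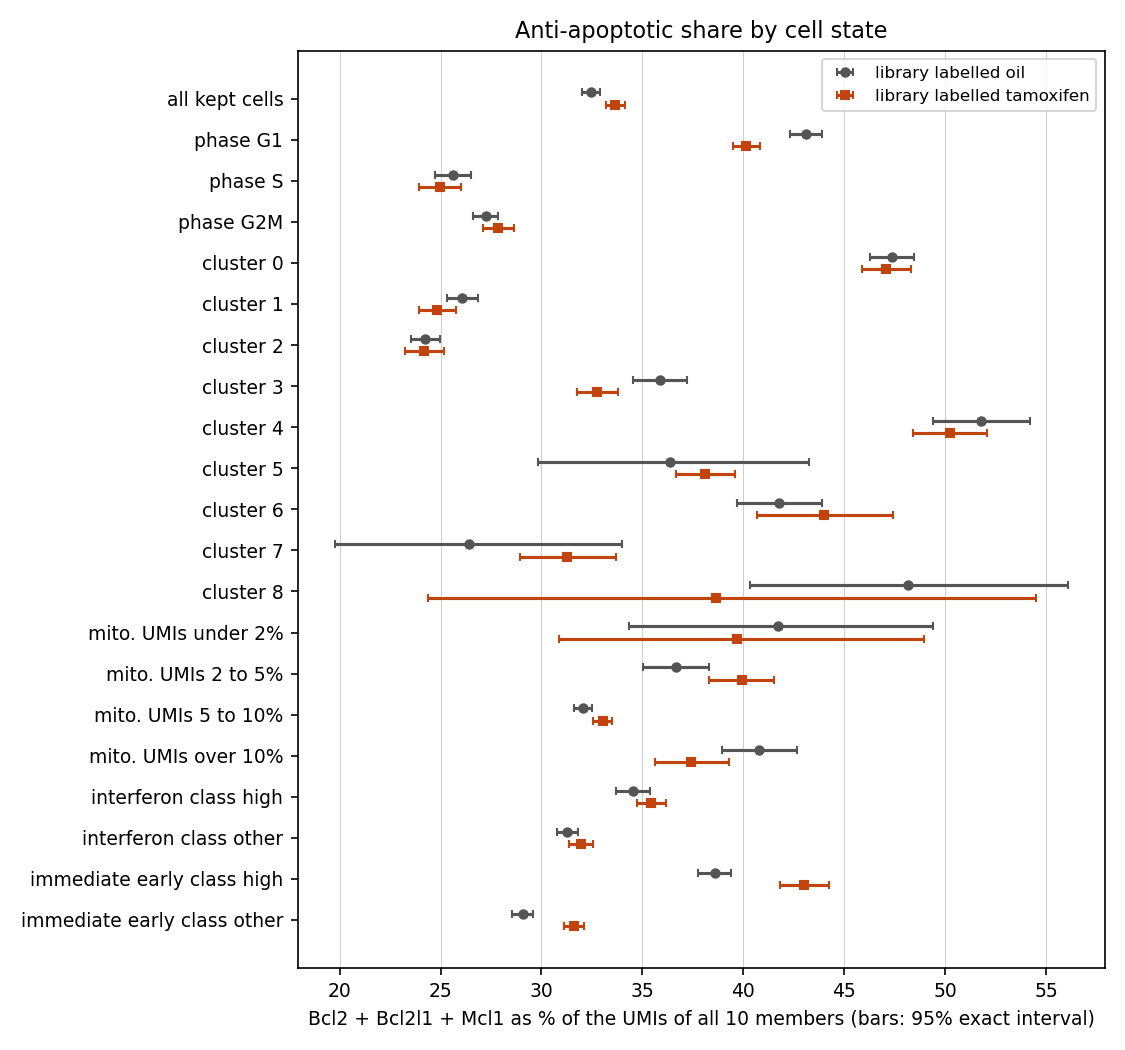
UMIs of Bcl2, Bcl2l1 and Mcl1 as a percentage of the UMIs of all 10 members, by cell cycle phase, cluster, mitochondrial share and class, in the libraries labelled oil (grey circles) and tamoxifen (orange squares); bars are exact 95% intervals. The clusters span 24.2% to 51.8%, while the libraries lie close together within most states.

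Around the family, other genes of the death pathway were read from fixed lists. Over all genes tested, 6.79% were past the fold higher in tamoxifen and 10.7% lower. Of 15 other BCL2 family genes 7 had enough UMIs, 0 were past the fold higher and 2 lower in tamoxifen, with a median log2 ratio of -0.19. They ran from Bcl2l13, a mitochondrial receptor for autophagy (0.10), to Bik, a BH3-only gene (-0.62, at 2.30 and 1.5001 CPM). The other low gene, named after its value was seen, was Bnip3 (-0.55), which hypoxia induces. Within G1 Bcl2l13 was at 0.13 (0.02 to 0.23), Bik at -0.13 (-0.76 to 0.50) and Bnip3 at -0.90 (-1.13 to -0.67).

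Downstream of the pore, 12 genes of the apoptosome and of factors released by mitochondria had 0 higher, 3 lower and a median of -0.17, from Apaf1, its scaffold (0.22), to Endog, a nuclease (-0.50). The 7 inhibitor of apoptosis genes had 0 higher, 1 lower and a median of 0.09, from Birc3 (0.23) to Birc5 (-0.51). Birc5 is also a gene of mitosis. Within G1 Birc3 was at -0.06 (-0.22 to 0.10) and Birc5 at -0.16 (-0.42 to 0.09). Upstream of Bid, 6 of 9 death receptor pathway genes were measured, with 0 past the fold in either direction and a median of -0.21. They ran from Cflar, the caspase-8 inhibitor (0.18, and 0.02 within G1), to Tradd (-0.31, and -0.54 within G1). Fas was at 0 UMIs in oil and at 0.115 CPM in tamoxifen, below the minimum for a ratio.

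Genes of MCL1 protein turnover (8 of 9 measured) had 0 higher, 1 lower and a median of -0.02, from Btrc (0.17) to Ube2c (-0.50), also a gene of mitosis, which was at -0.01 within G1. Channel genes of the outer membrane and of its contacts (8 genes) had 0 higher, 1 lower and a median of -0.14, from Itpr1 (0.15) to Vdac2, which holds BAK1 in the membrane (-0.32). FOXO and stress regulators of BH3-only genes (8 genes) had 2 higher, 1 lower and a median of 0.03, from Tsc22d3, which glucocorticoids and FOXO induce (0.52), to Trib3 (-0.73). Within G1 Tsc22d3 was at 0.08 (-0.02 to 0.18) and Foxo1, the other gene past the fold, named after its value was seen, at 0.12 (-0.19 to 0.43).

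The list of p53 and its other targets stood at the upper end. Of 11 measured genes of 14, 6 were past the fold higher in tamoxifen (all genes 6.79%) and 0 lower (10.7%). Their median was 0.40 against -0.06 over all genes. The list ran from Gadd45a (0.530 CPM in oil and 1.65 CPM in tamoxifen, log2 ratio 1.64, 1.07 to 2.24) to Aen (-0.19). The others past the fold, named after their values were seen, were Cdkn1a, the brake of the cell cycle (84.2 and 124 CPM), Ccng1, Sesn2, Trp53inp1 and Zmat3. Within G1 the log2 ratios were 1.82 for Gadd45a, 0.34 for Cdkn1a, 0.72 for Ccng1, 0.55 for Sesn2, 0.76 for Trp53inp1 and 1.06 for Zmat3. Aen was at 0.16 (-0.02 to 0.36) there. Beside these, the members that p53 induces gave log2 ratios of 0.18 (Bbc3), 0.00 (Bax) and -0.04 (Pmaip1), and -0.11, 0.20 and -0.37 within G1.

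Genes with the most similar pattern were sought over 15 cluster sums of at least 100 cells, which share 2 libraries, among 5847 genes. Mcl1 was most like Plek (r = 0.99), Ubn2 and Ttc39b (0.98 each), and within the family like Bcl2l1 (0.88) and Bbc3 (0.85), while Bax was at -0.62. Bbc3 was most like Ranbp10 (0.98), Csf2rb and S100a13 (0.95 each). Bcl2l1 was most like Evi5, Ing4 and Ncoa3 (0.93 to 0.92), Bak1 like Selenot (0.96), Vdac2 (0.94) and Ncs1 (0.93), Bax like 2310039H08Rik (0.92), Ndufb7 (0.90) and Atpif1 (0.88), and Bad like Tmem9 (0.92), Ntpcr and Fam124a (0.91 each). Bax and Bak1 were at 0.23 to each other. These values describe this set of clusters and carry no test.

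At 3000 UMIs per cell a guard transcript was captured in 49.7% of oil cells and 51.3% of tamoxifen cells, and any member in 86.0% and 85.4%. Bax was seen in 50.6% and 48.8%, Mcl1 in 45.2% and 46.4%, Bak1 in 16.8% and 14.3%, and Bcl2 in 0.885% (0.669 to 1.15) and 1.22% (0.964 to 1.53). A pro-apoptotic but no anti-apoptotic transcript was seen in 36.3% of oil cells (35.1 to 37.5) and 34.1% of tamoxifen cells (32.9 to 35.3). Without thinning these cells were 14.4% and 14.5%. At a median of 2 family UMIs per thinned cell an unseen guard may be missed or absent, and these cannot be told apart. All cells came from 1 sorted population, so the level that free RNA alone would give could not be read from a cell type that lacks these genes.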

How the data were processed

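Cells of each group had been coupled to beads on a 10x Genomics Chromium controller with the single cell 3′ V3 kit, and the authors mapped the reads to mm10 with Cell Ranger 3.0.2. The deposited values are raw UMI counts per gene and barcode, with no normalization, and barcodes were taken as deposited; the gene annotation is not given in the sources used here. The submitters' processing notes also name Seurat.

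Kept were cells with 500 genes or more in which mitochondrial genes gave no more than 10% of UMIs (6838 of 7774 and 6472 of 7311 barcodes). Scrublet called 5 and 0 doublets and so did not work; no doublets were removed. Counts were summed per library or state and divided by the total (CPM), or, for mitochondrial bins, by the total without mitochondrial genes. Levels have exact Poisson intervals, ratios exact conditional binomial intervals, shares Clopper-Pearson intervals and odds exact conditional intervals, all at 95%, and cover counting error only. Ratios needed 100 UMIs over both libraries, and a gene counted as past the fold if 25% higher or 20% lower. UMIs of 1 cell are not independent samples of the condition, and cells are not replicates, so no test was run.

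For phases, classes and shares of cells with a UMI, each cell was thinned to 3000 UMIs (508 and 345 shallower cells were left out). Class limits were the 75th percentile of list UMIs over all thinned cells. Clusters came from Seurat (2000 variable features, 20 principal components, resolution 0.5, libraries merged and not integrated) without family genes, genes 1.5-fold apart between the libraries, and interferon, MHC class I, mitochondrial and sex chromosome genes. Likeness is Pearson's r of log2(CPM + 1) over genes of at least 20 CPM.

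The members, lists, settings and rules were chosen with earlier results of these data known. Named are all members, the highest and lowest gene of each list, the 3 genes most like each member of at least 20 CPM, and Usp18, Isg15 and Kit as checks. Positions are those of GENCODE M21 (GRCm38), which holds 31011 of the 31053 gene identifiers. Intervals were tried on counts simulated from the same counting model that they assume, which says nothing of spread between cells or mice. Alternatives were other cell filters, TMM (edgeR 4.0.16) and median-ratio (DESeq2 1.42.0) scaling, other totals, weights, minimums, thinning depths, cluster settings and bin edges. Clusters were built in R 4.3.3 with Seurat 5.3.0 and Matrix 1.6.5; the rest was done in Python 3.11.15 with scanpy 1.11.5, scipy 1.17.1, numpy 2.4.6 and pandas 2.3.3, and plots in matplotlib 3.10.9.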

Additional observations from a re-analysis of the deposited data

Results flagged for a closer look

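Bax differed in direction between states under the same contrast. Its log2 ratio of tamoxifen over oil was 0.20 (0.14 to 0.25) in G1 cells and -0.07 (-0.12 to -0.02) in G2M cells, and it was 0.39 in cluster 3 and 0.20 in cluster 4 but -0.37 (-0.71 to -0.02) in cluster 7, where oil had 34 cells. Counting intervals lay on opposite sides of 0, and the difference itself was not tested, since each state has 1 library per group.

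Bid differed in direction between the libraries for S over G1, with a log2 ratio of 0.24 (0.01 to 0.46) in tamoxifen and -0.22 (-0.44 to -0.01) in oil. This difference was not tested either, and both intervals end close to 0.

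Barcodes with fewer than 500 genes, which were left out of the kept cells, held 57 family UMIs in oil (205 barcodes) and 32 in tamoxifen (126 barcodes), above the 3 counts that an observation of 0 allows. The guard share there was 42.1% (29.1 to 55.9) and 37.5% (21.1 to 56.3).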

How the results depend on the processing

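No paired analysis was possible because a group holds only 1 library, and no replicate could be left out. Of the values that answer a comparison, 108 moved by less than their counting interval (counts by less than 1.5 times) under an alternative. Another 31 moved by more, and 4 changed sign from a main value whose interval left out 0. Of the values of single members, 194, 30 and 2 did. Sign changes of values whose interval included 0 are not in the counts of 4 and 2. The cause was not tested. Over 10 alternatives Bak1 stayed lower in tamoxifen (log2 ratio -0.30 to -0.17), as did Bad (-0.28 to -0.04), and Bcl2 (0.43 to 1.41), Bcl2l11 (0.29 to 0.77) and Bbc3 (0.04 to 0.26) stayed higher, whereas Bax, Bcl2l1, Bid, Mcl1 and Pmaip1 took both signs. Other scalings shifted all log2 ratios by 0.04 (TMM and median-ratio) and 0.08 (total without mitochondrial and ribosomal protein genes). Under these 3 the summed guard ratio was 0.085, 0.081 and 0.12, and the effector ratio was -0.00454, -0.00831 and 0.033. With the last total the BH3-only ratio was 0.071, and 1086 genes were higher and 579 lower past the fold, against 715 and 1122. A minimum of 20 or 500 UMIs left 1291 or 415 genes higher.

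With every cell given the same weight Mcl1 was at -0.024, the guard sum at -0.015, the balance at 0.034, and 1 member (Pmaip1) was lower past the fold. With the phase makeup of oil given to both libraries, chosen after seeing the data, Mcl1 was at -0.095, the guard sum at -0.092, the BH3-only sum at -0.058 and the balance at -0.056. Without Bax the balance was 0.13. A stricter cell filter (at least 1000 genes, at most 5% mitochondrial UMIs; 673 and 771 cells) gave 0.11 for the guard sum, -0.13 for the effector sum and 0.20 for the balance, and list medians of -0.014 (other family genes), -0.087 (death receptors), -0.21 (MCL1 turnover), 0.19 (p53) and 0.15 (FOXO and stress). Thinning to 5000 UMIs gave guard log2 odds for S over G1 of -1.04 in oil and -0.88 in tamoxifen, for G2M over G1 of -0.89 and -0.70, and for the immediate early class of 0.38 and 0.60. Clusters at resolution 0.3 spanned 24.1 and 22.01 percentage points of guard share in oil and tamoxifen, and Bcl2 was at most 6.31 and 8.82 CPM in a cluster. Mitochondrial bin edges of 1, 4 and 8% gave 0.36 for the top bin in oil. The other alternatives added after seeing the data left out clusters held mostly by 1 library, or the cluster of low UMI counts. Depth limits Bcl2, Pmaip1 and Bcl2l11 most, the members with the fewest UMIs.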
